A study of Mus musculus with 30 samples.

Results

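The genes of MHC class II antigen presentation were followed through circulating and glioma-infiltrating monocytes and macrophages of the mouse. The members were taken by name: the alpha and beta chain genes H2-Aa, H2-Ab1 and H2-Eb1, the invariant chain gene Cd74, the peptide editor genes H2-DMa, H2-DMb1 and H2-DMb2, the editor's inhibitor genes H2-Oa and H2-Ob, and the transactivator gene Ciita. These are 10 of the 45317 genes in the counts, and all 10 were among the 11566 genes that passed the filter on low counts. No measured value entered the rule, but the list was chosen with earlier results of these data known.

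RNA was sequenced from 8 sorted cell populations of 4 mice, numbered 22, 23, 24 and 26, which were 12 to 18 weeks old and of the strain C57BL6.CCR2RFP/WT, in which 1 allele of Ccr2 carries a red fluorescent reporter. All of the mice, those that gave blood included, bore a brain tumor of GL261.BpalmGFP, a single glioma line whose membranes carry GFP, so neither tumor-free mice nor mice with both Ccr2 alleles intact entered any comparison. Blood Ly6Chigh and Ly6Clow monocytes (CD45, CD115, low CD11c) came from mice 22, 23 and 24, and Ly6Chigh F4/80-stained monocytes of the brain came from mice 22, 24 and 26. CCR2high and CCR2low macrophages of the brain came from all 4 mice, and each brain cell type was divided into cells that had taken up tumor GFP (GFPpos) and cells that had not (GFPneg). The brain gate took cells high in both CD11b and CD45, which was meant to leave out microglia of intermediate CD45, and then used F4/80 and Ly6C, with no staining for CD11c or MHC class II. The brain alone was digested with enzymes, so that digestion and tissue cannot be told apart between blood and brain.

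MHC class II molecules are pairs of an alpha and a beta chain that show peptides from the endosome to CD4+ T cells. The invariant chain escorts the new pairs to the endosome, where its last fragment is removed from the groove by H2-DM, and H2-O holds H2-DM in check. CIITA switches the genes on through proteins (RFX, CREB, NF-Y) that are bound to an X box and a Y box in their promoters. C57BL/6 mice lack a working H2-Ea gene, so that the H2-Eb1 chain has no partner and its mRNA does not stand for I-E protein on the cell. H2-O is best known from B cells, and macrophages raise the chain genes, Cd74 and H2-DM in response to interferon gamma.

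The promoters of some of these genes share 2 motifs. RefSeq promoter stretches (GRCm38.p6, 250 bases before to 50 after the start) were matched for 7 of the 10 members. A core of the X box, searched as AACNNATGA, stood before a Y box, searched as GATTGG, on the gene's strand in 4 of them. The letters do not overlap each other, and both strands were searched. Of all 32851 promoters of the same length, 2.85% held this X core on either strand, 16.1% held the Y box, and 0.0578% (19 promoters) held both in this order before the start. In 8 promoters the motifs started within 40 bases of each other, and 4 of these belong to the members shown here. Capitals mark the X core and the Y box, and each stretch runs 5′ to 3′ on the gene's strand.
H2-Eb1: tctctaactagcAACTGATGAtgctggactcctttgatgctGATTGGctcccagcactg
H2-DMb1: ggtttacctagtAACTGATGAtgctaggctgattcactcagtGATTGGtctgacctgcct
H2-DMb2: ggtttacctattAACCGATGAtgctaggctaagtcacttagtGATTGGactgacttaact
H2-Ob: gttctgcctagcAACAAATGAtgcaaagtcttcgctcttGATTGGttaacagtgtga
H2-Aa: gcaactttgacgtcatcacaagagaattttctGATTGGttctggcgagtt
H2-Oa: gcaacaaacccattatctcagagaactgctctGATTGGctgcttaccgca

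The H2-Eb1 stretch lies at chr17:34305766-34305824 on the plus strand, outside every annotated exon, with 20 bases between the motifs. The H2-DMb1 stretch (chr17:34153087-34153146, plus strand) overlaps a non-coding exon of the gene, and the H2-DMb2 stretch (chr17:34145116-34145175, plus strand) lies in an intron of a longer H2-DMb2 transcript. Both leave 21 bases between the motifs. The H2-Ob stretch (chr17:34238808-34238864, plus strand) lies outside every annotated transcript and leaves 18 bases. H2-Aa (chr17:34287855-34287904, minus strand, outside any transcript) and H2-Oa (chr17:34092303-34092352, plus strand, overlapping a non-coding exon part) held the Y box alone in these letters, at 49 and 44 bases before the start. The H2-DMa entries held no X core, and 1 of them held the Y box letters.

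By GENCODE vM21, on the same GRCm38 build, 8 members lie in the class II region of chromosome 17. H2-Oa occupies chr17:34092340-34095234, H2-DMa chr17:34119541-34139101, H2-DMb2 chr17:34143307-34151555 and H2-DMb1 chr17:34153072-34160230, all on the plus strand. H2-Ob occupies chr17:34238903-34254414, H2-Ab1 chr17:34257689-34269419 and H2-Eb1 chr17:34305867-34316674 on the plus strand, and H2-Aa chr17:34282744-34287823 on the minus strand. Ciita lies at chr16:10480059-10528418 and Cd74 at chr18:60803848-60812652, both on the plus strand. Exons of H2-Oa share 321 bases with BC051537, those of H2-DMa 360 bases with Brd2 and those of Ciita 329 bases with Dexi, and reads there may be lost or, as no strand setting is given, come from the other gene. H2-DMb1 and H2-DMb2 are close copies, and how their reads were split is uncertain.

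The 28 replicates held 1553616 to 5689644 counts on genes. For Ly6Clow monocytes of mouse 23 the first library detected 3460 genes with 5 or more reads, under the study's limit of 6000, and a repeat library was used in its place. For GFPpos glioma monocytes of mouse 22 both the first and a repeat library passed and were summed. These repeat libraries stood apart at the members themselves. The ratio of H2-Aa to H2-Ab1 counts was 0.456 to 0.738 in all 28 first libraries, and 1.90 and 2.35 in the 2 repeats, while the first libraries of the same 2 samples gave 0.480 and 0.609. The ratio of H2-Aa to H2-Eb1 did not separate them (1.46 and 1.47 in the repeats, 1.13 to 2.42 in the first libraries). The H2-Ab1 values of these 2 replicates are therefore given with this reservation, and called differences from Ly6Clow monocytes, the Cd74 ratio, the median correlation and the relation with depth are given also without them or their repeats.

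**Figure D1:**
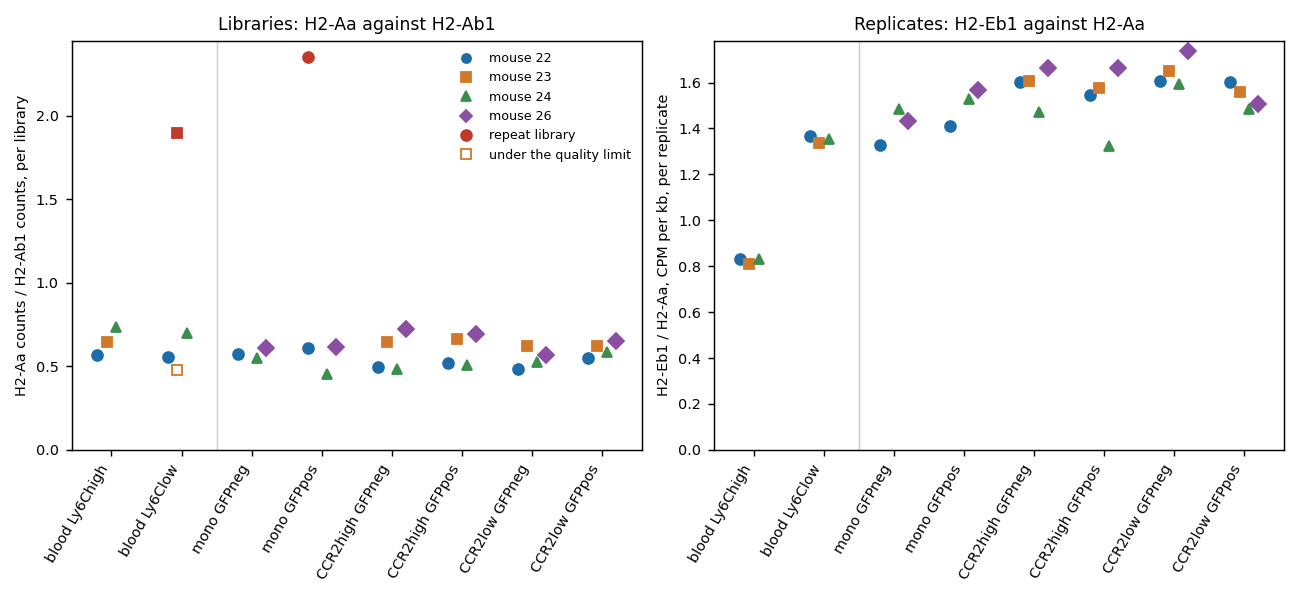
Ratios between class II genes in each population. Left, H2-Aa counts divided by H2-Ab1 counts in each of the 30 libraries, with repeat libraries in red and the library under the quality limit as an open square; the repeats lie at 1.90 and 2.35 and every first library at or below 0.738. Right, H2-Eb1 divided by H2-Aa, both as CPM per kilobase of exon, in each of the 28 replicates; Ly6Chigh blood monocytes lie at 0.808 to 0.831 and all others at 1.32 or above.

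Levels are given as CPM, read counts scaled by TMM to a common library size. Between genes they are given as CPM per kilobase of exon, apart from ranks, count ratios and the share of H2-DMb2. The exon length is that of all annotated exons of a gene merged, which can exceed the length of the RNA expressed. The members made up 1.19% of all gene counts in Ly6Chigh blood monocytes (SD 0.207, n = 3), 3.12% in Ly6Clow monocytes (SD 1.52, n = 3) and 3.42% to 4.78% on average in the 6 brain populations. By mean CPM over the replicates Cd74 ranked 1 among all genes, H2-Ab1 3, H2-Aa 12 and H2-Eb1 19. In GFPneg glioma monocytes the mean level per kilobase was 10306 for Cd74, 3489 for H2-Ab1, 1908 for H2-Eb1 and 1349 for H2-Aa. The editor chains followed at 601 for H2-DMb1, 357 for H2-DMa and 73.2 for H2-DMb2, and then H2-Oa at 66.2, Ciita at 14.8 and H2-Ob at 8.09. This order depends on the lengths used. In CPM H2-Aa (5123) stood above H2-Eb1 (3709) there, and H2-DMa (1231) above H2-DMb1 (1010). In cells sorted in bulk, fewer cells of a type and less RNA per cell cannot be told apart.

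Ly6Chigh blood monocytes had the lowest mean of the 8 populations for 9 members, all but Ciita. For 7 of them, H2-Aa, H2-Ab1, H2-Eb1, H2-DMb2, H2-Oa, H2-Ob and Cd74, their range did not overlap that of the next population. Above Ly6Chigh monocytes the order was mostly within the spread. Neighbours in the order overlapped for every member, apart from H2-Ab1 in Ly6Clow blood monocytes, which lay below GFPneg glioma monocytes without overlap. The H2-Ab1 value of Ly6Clow mouse 23 came from the repeat library described above.

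**Figure D2:**
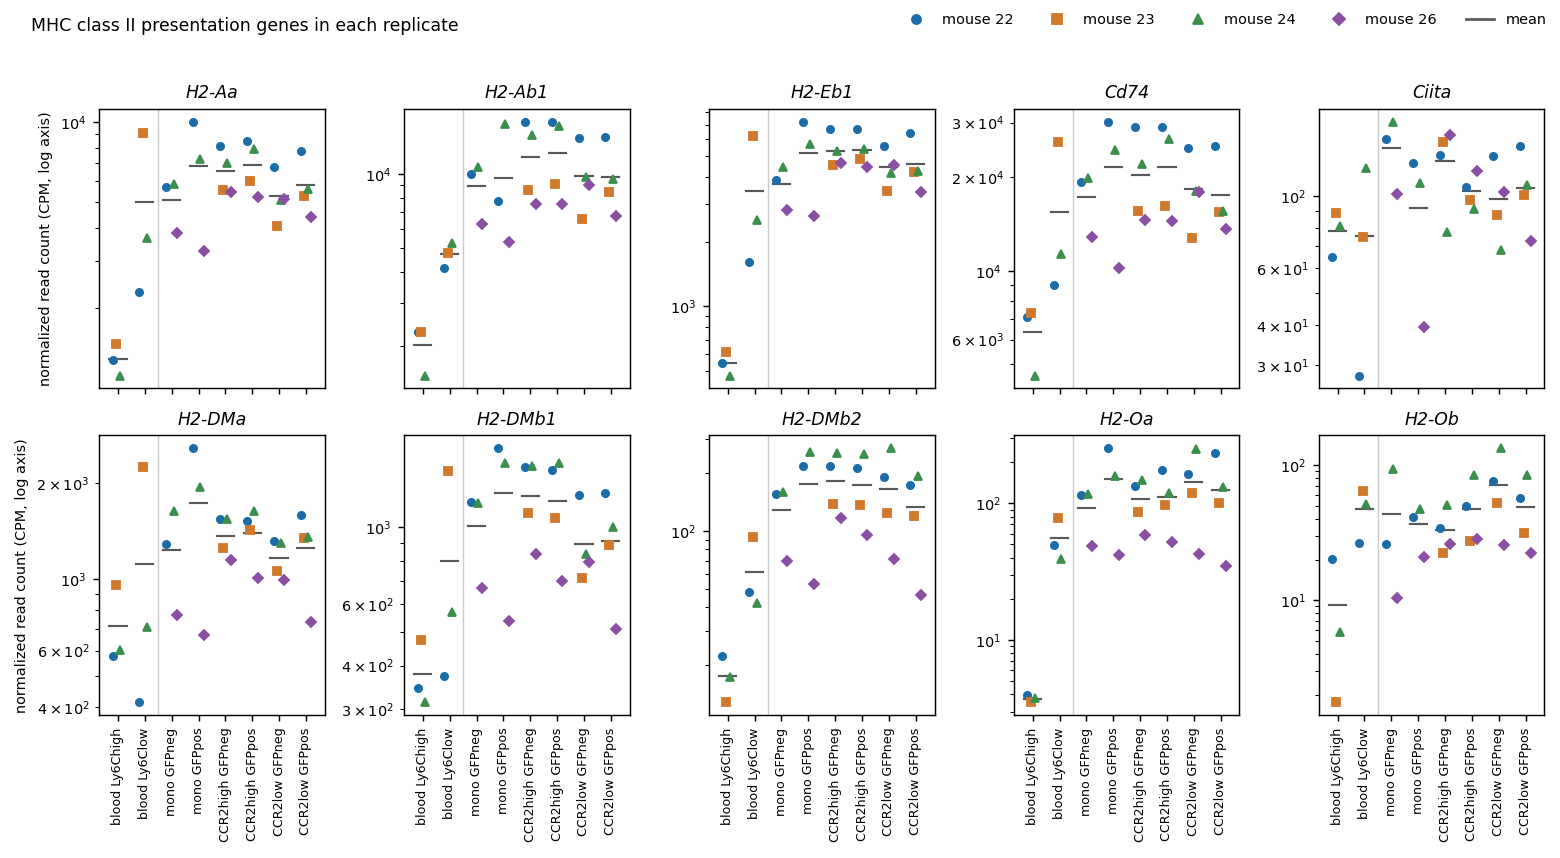
CPM (log axis) of the 10 members in the 8 populations, with 1 point per replicate, its symbol and colour by mouse, and a bar at the population mean. Ly6Chigh blood monocytes sit lowest in 9 of the 10 panels; for H2-Oa they lie at 3.51 to 3.93 CPM against 34.5 or more in every brain replicate.

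The first question is how blood Ly6Chigh monocytes, the cells taken to enter the tumor, compare with the GFPneg cells of the glioma. The chain genes, the invariant chain, H2-DMb1, H2-DMb2 and H2-Oa were higher in all 3 brain cell types, and H2-Ob passed the test in CCR2low macrophages. H2-DMa and Ciita did not pass in any of the 3, though with mouse as a block H2-DMa passed in CCR2high macrophages (1.19 on the log2 scale, adjusted p = 0.0244). Here and below, the block assumed 1 shift per mouse shared by blood and brain. In GFPneg glioma monocytes 7 of 10 members were called higher (adjusted p under 0.05) and none lower, where 11.1% of all tested genes were called higher. In CCR2high macrophages 7 were called, with a background of 12.7%, and in CCR2low macrophages 8, with a background of 14.1%. The 3 comparisons share the same Ly6Chigh samples.

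The replicates of both groups were apart, with all brain values higher, for 8 members in glioma monocytes (21.6% of tested genes), 9 in CCR2high macrophages (21.8%) and 9 in CCR2low macrophages (21.1%). The median log2 fold change of the members was 2.07, 2.10 and 2.16 in the 3 comparisons, beside 0.12, 0.15 and 0.17 over all tested genes. Without mouse 24 in any population, the mouse of the brain replicate with the highest B cell marker sum, the calls fell to 4, 5 and 5, while those over all genes fell from 1596 to 976, from 2060 to 1267 and from 2340 to 1496. Mouse 24 did not have the highest B cell sum in either blood population. With the spike-in RNAs as the scale the members called fell to 1, 3 and 3, and all genes called to 398, 523 and 591.

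**Figure D3:**
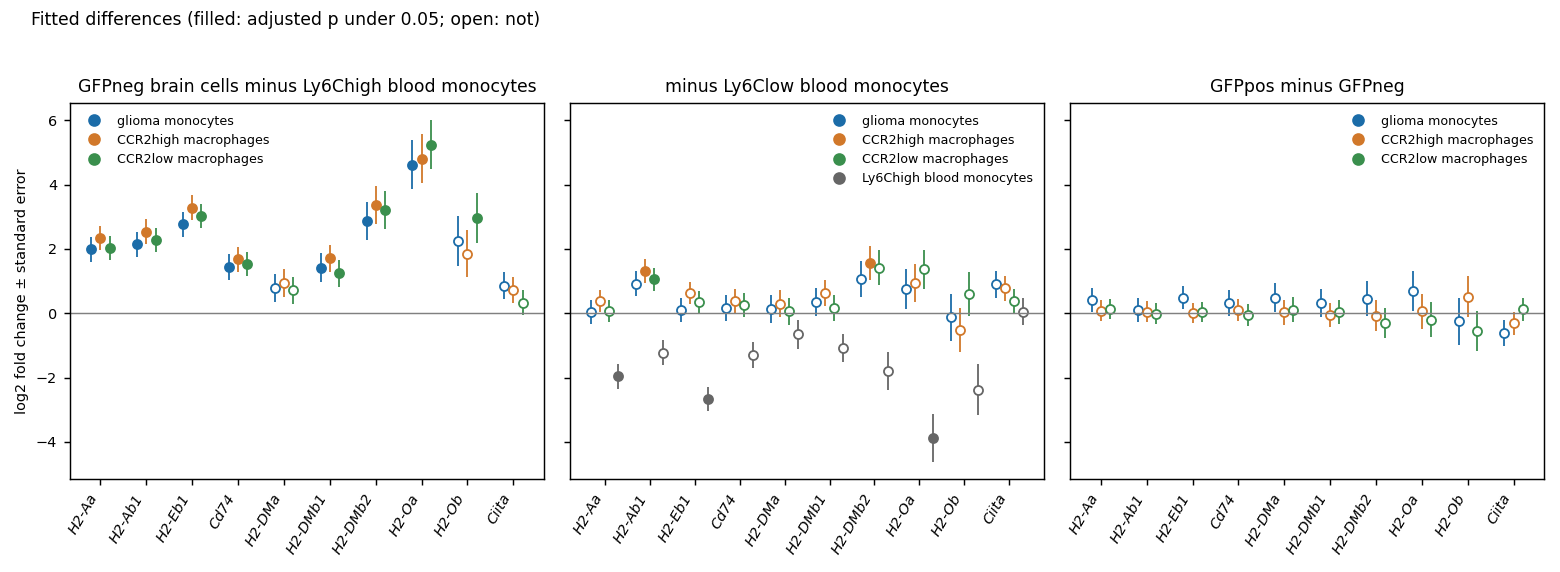
Log2 fold changes (points) with standard errors (lines) of the 10 members, for GFPneg brain populations against Ly6Chigh blood monocytes, for populations against Ly6Clow blood monocytes, and for GFPpos against GFPneg cells of 1 type. Filled points have an adjusted p under 0.05; in the first panel these are 7, 7 and 8 members, and in the last panel there are none.

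H2-Aa, the alpha chain of I-A, stood at 1284, 1474 and 1119 CPM in Ly6Chigh monocytes of mice 22, 23 and 24. GFPneg glioma monocytes of mice 22, 24 and 26 held 5701, 5844 and 3825 CPM. All brain values lay above all blood Ly6Chigh values, with a log2 fold change of 1.99 ± 0.39 (SE, adjusted p = 0.000712). Without mouse 24 it was 1.76 (adjusted p = 0.0600) and with spike-in scaling 1.83 (adjusted p = 0.245), so that this call was lost in both. GFPneg CCR2high macrophages of mice 22, 23, 24 and 26 held 8146, 5566, 7035 and 5486 CPM (log2 fold change 2.34 ± 0.38, adjusted p = 6e-05). GFPneg CCR2low macrophages held 6786, 4075, 5106 and 5143 CPM (2.03 ± 0.37 on the log2 scale, adjusted p = 0.000244). Mouse 22 was the highest of the 4 in both macrophage populations. Both macrophage calls were lost with spike-in scaling (adjusted p = 0.0605 and 0.120) and with no other alternative.

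H2-Ab1, the beta chain that pairs with H2-Aa, stood at 2272, 2284 and 1516 CPM in Ly6Chigh monocytes. It reached 9969, 10646 and 6263 CPM in GFPneg glioma monocytes, a log2 fold change of 2.15 ± 0.39 (SE, adjusted p = 0.000344). In CCR2high macrophages it stood at 16354, 8640, 14481 and 7594 CPM, with mice 22 and 24 high and mice 23 and 26 low, and none overlapped the Ly6Chigh values. The log2 fold changes were 2.54 ± 0.39 in CCR2high and 2.28 ± 0.38 in CCR2low macrophages (adjusted p = 2.81e-05 and 7.98e-05). All 3 calls were lost with spike-in scaling (adjusted p = 0.216, 0.0529 and 0.0848) and with no other alternative.

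H2-Eb1, the beta chain of I-E, had larger fold changes than either I-A chain. It rose from 545, 610 and 476 CPM in Ly6Chigh monocytes to 3871, 4446 and 2808 CPM in GFPneg glioma monocytes (log2 fold change 2.77 ± 0.39, adjusted p = 1.1e-05). CCR2high macrophages held 6675, 4577, 5300 and 4675 CPM and CCR2low macrophages 5574, 3445, 4164 and 4569 CPM, all above the blood. The log2 fold changes were 3.29 ± 0.38 and 3.03 ± 0.38 (adjusted p = 7.05e-07 and 1.69e-06), and both kept their call under every alternative tried. The call in glioma monocytes was lost with spike-in scaling (adjusted p = 0.0641). Its would-be partner was almost silent: H2-Ea-ps reached at most 1.42 CPM in any replicate and was not tested, and the related beta chain gene H2-Eb2 reached at most 11.1 CPM.

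Cd74, the invariant chain, was already the most abundant member in the blood, at 7076, 7319 and 4593 CPM in Ly6Chigh monocytes. GFPneg glioma monocytes held 19244, 19826 and 12843 CPM, all above the blood, with a log2 fold change of 1.45 ± 0.40 (adjusted p = 0.0148). The difference in CCR2high macrophages was 1.68 ± 0.39 on the log2 scale (adjusted p = 0.00271) and that in CCR2low macrophages 1.54 ± 0.39 (adjusted p = 0.00508). Without mouse 24 none of the 3 passed the test, nor did any with spike-in scaling. The call in glioma monocytes was lost also without the replicate of mouse 22 or 24 there or the Ly6Chigh replicate of mouse 24.

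Of the editor genes, the beta chain genes passed and the alpha chain gene did not. H2-DMa stood at 578, 961 and 603 CPM in Ly6Chigh monocytes and at 1290, 1632 and 772 CPM in GFPneg glioma monocytes, so that mouse 26 fell within the blood range, and its log2 fold changes ran from 0.71 to 0.94 in the 3 comparisons (adjusted p = 0.138 to 0.299). H2-DMb1 went from 345, 475 and 314 CPM to 1184, 1178 and 669 CPM, apart from each other, at 1.42 ± 0.44 on the log2 scale (adjusted p = 0.0311). This call was lost when any 1 of the 3 Ly6Chigh replicates, or the glioma monocytes of mouse 22 or 24, were left out. The difference was 1.71 ± 0.43 in CCR2high and 1.25 ± 0.42 in CCR2low macrophages (adjusted p = 0.00547 and 0.0353), and the latter was lost without any 1 Ly6Chigh replicate or without the CCR2low replicate of mouse 22. All 3 H2-DMb1 calls were lost also with spike-in scaling and without mouse 24. Those in glioma monocytes and CCR2low macrophages were lost with the filter of 1 count in any library as well.

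H2-DMb2, the lower of the editor's beta chain genes, stood at 22.5, 12.9 and 17.4 CPM in Ly6Chigh monocytes and at 155, 160 and 69.7 CPM in GFPneg glioma monocytes. Its log2 fold change was 2.86 ± 0.59 there (adjusted p = 0.00134), 3.36 ± 0.59 in CCR2high and 3.22 ± 0.59 in CCR2low macrophages (adjusted p = 0.000153 and 0.000208). The macrophage calls held under every alternative tried, and the call in glioma monocytes was lost with spike-in scaling (adjusted p = 0.118).

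The inhibitor genes showed the widest spans. H2-Oa was near the limit of detection in Ly6Chigh monocytes, with 7, 6 and 18 counts, or 3.93, 3.51 and 3.76 CPM. GFPneg glioma monocytes held 115, 116 and 48.4 CPM, CCR2high macrophages 134, 86.4, 148 and 58.3 CPM, and CCR2low macrophages 164, 118, 249 and 42.7 CPM. Mouse 26 was the lowest each time and still lay above every Ly6Chigh value. The log2 fold changes of 4.62 ± 0.76, 4.81 ± 0.75 and 5.24 ± 0.76 (adjusted p = 9.53e-05, 3.73e-05 and 1.33e-05) were the largest among the members, and none lost its call under any alternative tried.

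H2-Ob, the beta chain of the inhibitor, varied far more between replicates of 1 population. Ly6Chigh monocytes held 20.2, 1.76 and 5.85 CPM, the second from 3 counts, and GFPneg glioma monocytes 26.1, 94.2 and 10.3 CPM, which overlap them. The log2 difference of 2.25 ± 0.78 did not pass (adjusted p = 0.0556), nor did 1.86 ± 0.74 in CCR2high macrophages (adjusted p = 0.0862). With mouse as a block both passed, at 2.12 (adjusted p = 0.019) and 2.17 (adjusted p = 0.00953). CCR2low macrophages held 76.0, 52.1, 134 and 25.8 CPM, all above the blood, and passed at 2.97 ± 0.77 (adjusted p = 0.00674). This call was lost with spike-in scaling, without mouse 24 and with first libraries alone. It was lost also without the Ly6Chigh replicate of mouse 23 or of mouse 24. Its adjusted p was at most 0.175 over its alternatives.

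Ciita, the transactivator, passed the test in none of the 3. Ly6Chigh monocytes held 64.6, 88.4 and 81.1 CPM and GFPneg glioma monocytes 150, 170 and 101 CPM, all higher. The log2 difference was 0.85 ± 0.42 (adjusted p = 0.211). CCR2high macrophages held 134, 147, 77.4 and 155 CPM and CCR2low macrophages 133, 87.3, 68.0 and 103 CPM, which overlap the blood, at 0.72 ± 0.40 and 0.32 ± 0.39 on the log2 scale (adjusted p = 0.235 and 0.648). Over the 22 brain replicates 17 lay above all Ly6Chigh values, against all 22 for H2-Aa, H2-Ab1, H2-Eb1, H2-DMb1, H2-DMb2, H2-Oa and Cd74.

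The second question is how the 2 blood monocyte types differ. Here 3 members, H2-Aa, H2-Eb1 and H2-Oa, were called lower in Ly6Chigh than in Ly6Clow monocytes and none higher, where 3.65% of tested genes were called lower and 1.96% higher. For 7 members the groups were apart with Ly6Chigh lower, as they were for 7.23% of tested genes. The members' median log2 fold change was −1.54, beside 0.02 over all tested genes. Fitting these 2 populations alone called no member, and 0 of the 8928 genes tested there. The samples were labelled by Ly6C staining, and mean Ly6c2 was 1176 CPM in Ly6Chigh and 123 CPM in Ly6Clow monocytes, while Treml4, a gene of patrolling monocytes, stood at 315 and 933 CPM.

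H2-Eb1 stood at 1611, 6220 and 2536 CPM in Ly6Clow monocytes of mice 22, 23 and 24, all above the 476 to 610 CPM of Ly6Chigh monocytes (log2 fold change −2.67 ± 0.38, adjusted p = 0.000121). H2-Aa stood at 2300, 9089 and 3663 CPM, again with mouse 23 far above the others, and differed by −1.96 ± 0.39 (adjusted p = 0.00294). H2-Oa stood at 49.5, 78.7 and 39.1 CPM, more than any Ly6Chigh value, and differed by −3.88 ± 0.74 (adjusted p = 0.00221). Mouse 23 is the sample with the repeat library, which held 6475 genes at 5 or more reads against 9512 and 10882 in mice 22 and 24. Spike-in RNAs made up 13.3% of its counts, against 2.47% and 0.779%.

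Without the repeat libraries, which leaves Ly6Clow monocytes of mice 22 and 24 alone, 2 members were called: H2-Eb1 at −1.91 (adjusted p = 0.00135) and H2-Oa at −3.51 (adjusted p = 0.0102). H2-Aa then stood at −1.19 (adjusted p = 0.053), and Cd74 at −0.67 (adjusted p = 0.519), where it was −1.29 ± 0.40 with all replicates (adjusted p = 0.0563). As the numbers in the titles were taken to mark the mouse, mouse was also added as a block to the fit over all 28 replicates. This is not a comparison of blood samples within mice alone, as the mouse terms came from blood and brain together. Deviations of the same mouse did not correlate between blood and brain (median −0.0128). With mouse as a block 7 members were called lower, the additions being H2-Ab1 (−1.21, adjusted p = 0.00861), H2-DMb2 (−1.91, adjusted p = 0.00162), H2-Ob (−2.59, adjusted p = 0.0112) and Cd74 (−1.34, adjusted p = 0.0183). H2-DMa (−0.65) and Ciita (0.05) passed in neither fit. How many of all tested genes were called with mouse as a block is not given here. With spike-in scaling no member was called and H2-Aa turned to 0.22 (adjusted p = 0.846), on a scale on which the median gene was 1.69 higher in Ly6Chigh monocytes.

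Set against Ly6Clow monocytes in place of Ly6Chigh, the brain populations differed far less at these genes. The 3 comparisons share the Ly6Clow samples. None of 10 members was called in GFPneg glioma monocytes by edgeR (2 had an unadjusted p under 0.05, and DESeq2 called 0), while 13% of tested genes were called higher. H2-Ab1 and H2-DMb2 were called higher in CCR2high macrophages (background 14.7%) and H2-Ab1 in CCR2low macrophages (background 15%). The members' median log2 fold changes of 0.25, 0.62 and 0.37 stood beside 0.24, 0.25 and 0.26 over all tested genes.

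With the repeat library used for mouse 23, H2-Ab1 lay above Ly6Clow monocytes in all 22 brain replicates. Ly6Clow monocytes held 4156, 4793 and 5237 CPM, the second from that library, and the brain replicates 5319 to 16354 CPM. The repeat held 12431 H2-Ab1 counts of 2690612 on genes. The first library of that sample, under the quality limit, held 16986 of 1091905, so the separation depends on the library used. H2-Ab1 differed by 1.32 ± 0.37 on the log2 scale in CCR2high macrophages (adjusted p = 0.0108) and by 1.06 ± 0.36 in CCR2low macrophages (adjusted p = 0.0357). Without the repeat libraries the differences were 1.30 (adjusted p = 0.0519) and 1.05 (adjusted p = 0.119). Both calls were lost also with first libraries alone, and that in CCR2low macrophages under several other alternatives. For H2-Aa only 1 of the 22 brain replicates lay above all Ly6Clow values, and for Cd74 and H2-Eb1 4. For H2-DMb2 18 did, among them all 4 GFPneg CCR2high replicates, and for H2-Oa 16.

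The call of H2-DMb2 in CCR2high macrophages (1.57 ± 0.53, adjusted p = 0.0345) was lost without mouse 24, and without the Ly6Clow or CCR2high replicate of mouse 22 or of mouse 24. It was lost also with first libraries alone and when only the populations compared were fitted. Without the repeat libraries CCR2high macrophages had 5 members called higher than Ly6Clow monocytes, H2-Aa (1.11, adjusted p = 0.0285), H2-Eb1 (1.33, adjusted p = 0.00808), H2-DMa (1.26, adjusted p = 0.0429), H2-DMb1 (1.36, adjusted p = 0.0344) and H2-DMb2 (1.99, adjusted p = 0.0388). Leaving out Ly6Clow monocytes of mouse 23 alone gave 6. With mouse as a block 2 members were called in glioma monocytes, H2-Ab1 (0.98, adjusted p = 0.0187) and H2-DMb2 (1.23, adjusted p = 0.0179), and 3 in each macrophage population, H2-Oa joining at 1.21 (adjusted p = 0.0129) in CCR2high and 1.50 (adjusted p = 0.00269) in CCR2low macrophages. Leaving out Ly6Clow monocytes of mouse 22 left 1 member called in CCR2high and 0 in CCR2low macrophages. Shares over all tested genes are not given for these alternatives.

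Within the tumor no member was called between monocytes and macrophages or between CCR2high and CCR2low macrophages. Between CCR2high macrophages and glioma monocytes, both GFPneg, 622 genes reached an unadjusted p under 0.05 and 0.182% of the tested genes were called. The members lay between −0.39 (H2-Ob) and 0.52 (H2-Eb1) on the log2 scale. Between CCR2low macrophages and glioma monocytes 978 genes reached that unadjusted p and 1.21% were called. The members lay between −0.53 (Ciita) and 0.72 (H2-Ob). Between the macrophage populations 276 genes reached it, edgeR called 0% and DESeq2 8 genes. H2-Ob had the largest difference there, −1.11 ± 0.64. None of the 10 members had an unadjusted p under 0.05 in any of these, and DESeq2 called none. With mouse as a block no member was called either, where 96, 284 and 3 of all tested genes were. Within mice, 7 members were higher in CCR2high macrophages than in glioma monocytes in all 3 shared mice, among them H2-Aa, H2-Ab1, H2-Eb1 and Cd74. H2-Ob and H2-DMb2 were higher in CCR2low macrophages than in glioma monocytes in all 3. Between the macrophages 5 members, H2-Aa, H2-Eb1, H2-DMa, H2-DMb1 and Ciita, were higher in CCR2high cells in all 4 mice. How many of all tested genes kept 1 direction in every mouse was not counted, so these counts do not set the members apart. Standard errors were 0.31 to 0.69 with 3 or 4 mice, and a difference had to exceed its standard error several times to be called. Between the blood monocytes H2-Ab1 at −1.22 ± 0.38 was not called (adjusted p = 0.0581). Differences of about that size may have gone unseen within the tumor.

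Uptake of tumor GFP went with no called change. In all 3 cell types 0% of the tested genes were called by edgeR between GFPpos and GFPneg cells, with 739 genes at an unadjusted p under 0.05 in monocytes, 69 in CCR2high and 184 in CCR2low macrophages. DESeq2 called 19, 1 and 5 genes, no member among them, and no member had an unadjusted p under 0.05. In monocytes the members lay between −0.61 ± 0.42 (Ciita) and 0.69 ± 0.62 (H2-Oa), in CCR2high macrophages between −0.31 ± 0.36 (Ciita) and 0.52 ± 0.63 (H2-Ob), and in CCR2low macrophages between −0.55 ± 0.63 (H2-Ob) and 0.13 ± 0.32 (H2-Aa). Over the mice of a cell type the differences of each chain gene had both signs.

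Ciita, H2-DMb2 and H2-Ob kept 1 direction over the mice of a cell type, H2-Ob upward in GFPpos CCR2high and downward in GFPpos CCR2low macrophages. Ciita was lower in GFPpos than in GFPneg monocytes in all 3 mice, at 127, 110 and 39.4 against 150, 170 and 101 CPM. H2-DMb2 was lower in GFPpos cells in all 4 mice in both macrophage populations, by a median of 0.03 log2 units in CCR2high and 0.32 in CCR2low macrophages. The share of all tested genes with 1 direction over the mice was not counted here either. The GFP effects of the 3 cell types were compared with interaction terms, which called 0% of tested genes in each case (272, 394 and 84 at an unadjusted p under 0.05) and no member.

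Proportions among the members set the Ly6Chigh blood monocytes apart as well. These ratios of levels per kilobase were not tested. H2-Eb1 relative to H2-Aa was 0.823 ± 0.0127 (SD, n = 3) in Ly6Chigh monocytes, 1.35 ± 0.0155 in Ly6Clow monocytes, and 1.42 to 1.65 on average in the brain populations. No Ly6Chigh replicate exceeded 0.831 and no other replicate fell below 1.32. Cd74 relative to the beta chain genes was 3.51 ± 0.198 in Ly6Chigh monocytes against 2.42 ± 0.559 in Ly6Clow monocytes and means of 1.64 to 2.01 in the brain. The replicates that hold repeat libraries were the highest of their populations, at 3.06 in Ly6Clow monocytes, where the other two stood at 2.19 and 2.02, and at 2.67 in GFPpos glioma monocytes, where the other two stood at 1.59 and 1.77.

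The editor and its inhibitor differed in the same way. H2-DMa relative to the H2-DMb genes was 0.873 ± 0.0981 in Ly6Chigh monocytes and 0.489 to 0.599 on average in the brain. The share of H2-DMb2 in the summed CPM of H2-DMb1 and H2-DMb2, not divided by length, was 4.66% ± 1.8 in Ly6Chigh monocytes. It was 8.10% ± 2.90 in Ly6Clow monocytes and 11% to 15.2% on average in the brain. How reads were split between these close copies is uncertain. H2-Oa relative to H2-DMa was 0.0136 in Ly6Chigh monocytes, 0.171 in Ly6Clow monocytes and 0.182 to 0.288 in the brain.

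Among the brain replicates the members differed by mouse. Deviations of log2 CPM from the population mean were taken in the 6 brain samples of mice 22, 24 and 26 and the 4 of mouse 23. Mouse 22 was above the mean on average for every member, by 0.49 for Cd74, 0.40 for H2-Aa and 0.72 for H2-Oa, with 6 of 6 samples above in each. Mouse 26 was below on average for every member, by 1.18 for H2-Oa and 0.98 for H2-DMb2 with 0 of 6 samples above, and by 0.43 for Cd74 with 1 of 6 above. Mouse 24 was highest in H2-Ob, 0.97 above with 6 of 6 samples, and in Ciita it was split, 3 of 6 above. In both CCR2high populations depth divided the mice too, at 4261718 to 4825813 counts in mice 23 and 26. Mice 22 and 24 held 1688256 to 2014589 there. In the other brain populations depth did not divide the mice this way.

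**Figure D4:**
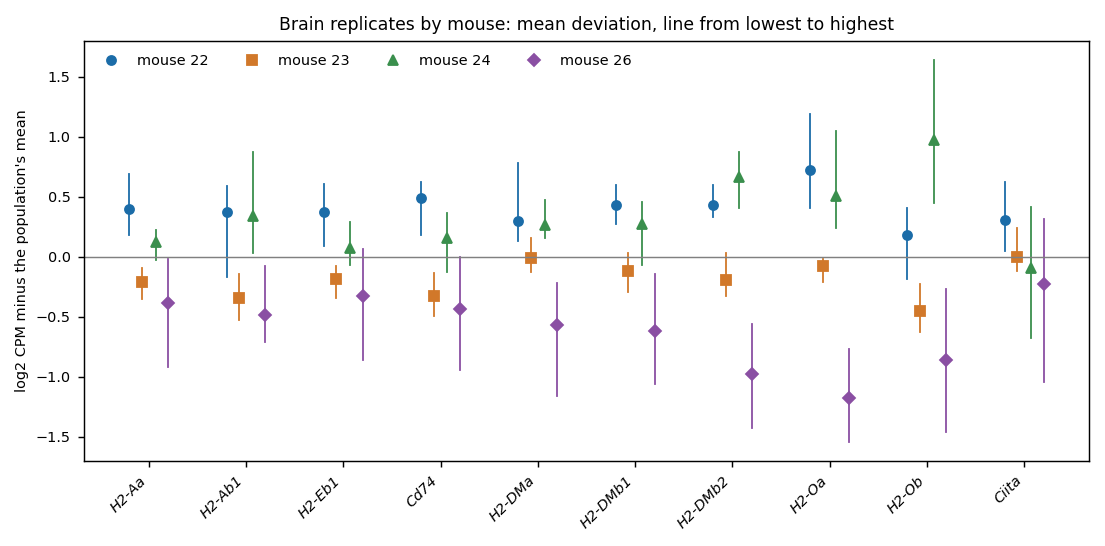
Deviation of log2 CPM from the mean of the same population for the 10 members in the brain replicates, by mouse; markers give the mean over a mouse's brain samples and lines their lowest and highest. Mouse 22 lies above 0 on average and mouse 26 below 0 for all members.

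Over the 28 replicates, with population means removed, the members moved together. The median correlation of their 45 pairs was 0.68 (range 0.191 to 0.988), beside 0.0441 over all pairs of tested genes. The highest pair was H2-Aa with H2-Eb1, and the medians of H2-Ob (0.479) and Ciita (0.470) against the other members were the lowest 2. The points share mice, and the median was 0.50 without mouse 26 and 0.744 without the repeat libraries. H2-Ab1 fell with the log2 count of the replicate (r = −0.63, n = 28), Cd74 less so (−0.37). The median was 0.04 over all tested genes and −0.12 over the 100 with the highest mean CPM. Without the 2 replicates that hold repeat libraries (n = 26) H2-Ab1 and Cd74 stood at −0.65 and −0.70, H2-Aa at −0.49, and the other members between −0.42 and 0.20. The part of depth in these values was not tested.

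Genes outside the list with the most similar pattern were sought by Spearman correlation of log2 CPM over the 28 replicates. For H2-Ab1 these were Ctsz (0.909), Manf (0.904) and Ctss (0.893). For Cd74 they were Rfc2 (0.912), Ctss (0.895) and Vps29 (0.877), all behind H2-Aa (0.963). H2-DMa had Rfc2 (0.904), Tbcb (0.900) and Ly86 (0.872), behind H2-DMb1 (0.939). H2-DMb2 had Bcl2a1a (0.907), F11r (0.903) and Pdia6 (0.898), and H2-Oa had F11r (0.915), H2-Q7 (0.877) and Ctss (0.864), each behind the other at 0.940. H2-Ob was closest to Cst3 (0.805) and then to Cd79a and Siglecg (0.768 each), of which Cd79a encodes a part of the B cell receptor. Ciita was closest to Slamf7 (0.731), Tap2 (0.725) and Ppargc1b (0.725), and 294 genes were closer to it than any other member was.

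Markers of other cell types that carry class II were read beside these results. The summed level of 8 B cell markers was 64.6 to 123 CPM in Ly6Chigh monocytes, 246 to 459 CPM in Ly6Clow monocytes and 40 to 987 CPM in the brain. The defining markers were above 0 in every population but CCR2high GFPneg macrophages, where Pax5 was at 0. Of 7 tested, 1 was called higher in CCR2low macrophages than in Ly6Chigh monocytes and none in the other 2 brain comparisons. The highest sum belonged to GFPneg CCR2low macrophages of mouse 24, where Cd79a was at 445 CPM, H2-Oa at 249 CPM and H2-Ob at 134 CPM. Within populations the sum went with H2-DMb2 (r = 0.83), H2-Ob (0.77) and H2-Oa (0.75) over 28 replicates that share mice, and without mouse 24 with r = 0.80, 0.59 and 0.82. For the other members r over the 28 replicates lay between 0.07 (Ciita) and 0.57 (H2-Ab1), with Cd74 at 0.37. The part of B cell RNA in these values was not tested.

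**Figure D5:**
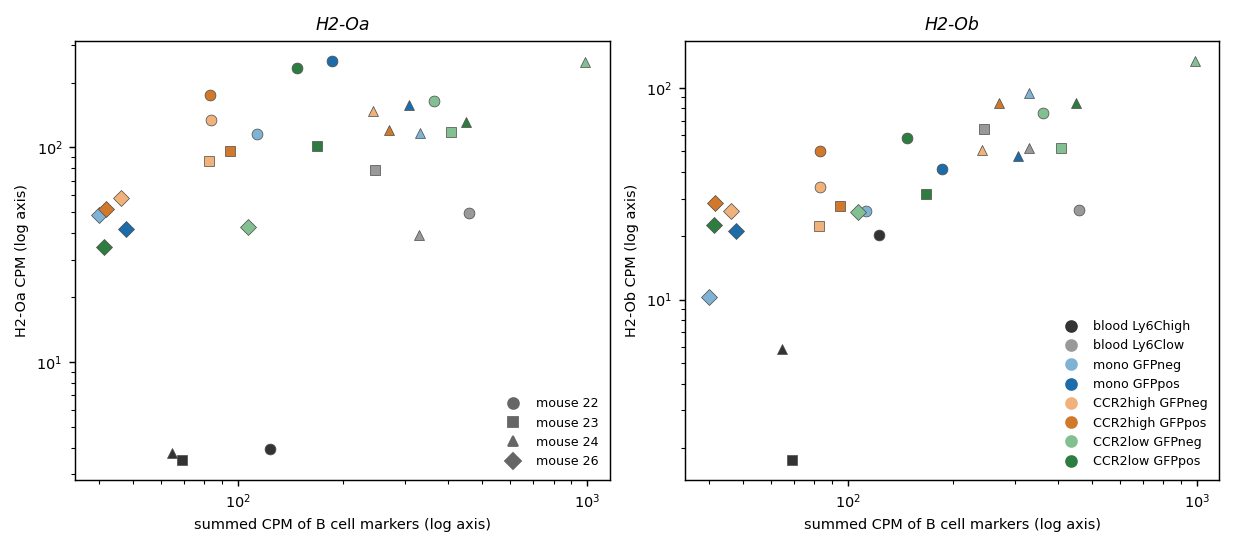
H2-Oa and H2-Ob (CPM, log axis) against the summed CPM of 8 B cell markers (log axis) in the 28 replicates, coloured by population and shaped by mouse. The GFPneg CCR2low replicate of mouse 24 lies farthest right at 987 CPM; Ly6Chigh monocytes lie low in H2-Oa at 64.6 to 123 CPM of marker sum, and brain replicates with marker sums as low as theirs hold 34.5 CPM of H2-Oa or more.

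Dendritic cell markers, 11 in all, summed to 171 to 339 CPM in Ly6Chigh monocytes, 687 to 2528 CPM in Ly6Clow monocytes and 653 to 1389 CPM in the brain. Against Ly6Chigh monocytes 5, 6 and 4 of them were called higher in glioma monocytes, CCR2high and CCR2low macrophages, and 0, 0 and 2 lower. Between the blood monocytes 2 were lower in Ly6Chigh cells. Siglech, which is also on the list of microglia markers below and is counted in both, was at 0 in all blood replicates and averaged 126 to 267 CPM in the brain populations. Ccr7 averaged 18.5 CPM in Ly6Chigh monocytes, 159 CPM in Ly6Clow monocytes and 115 to 332 CPM in the brain, and Flt3 43.2, 62.8 and 4.69 to 20.9 CPM. The mean of Zbtb46, a transcription factor of dendritic cells, was at most 5.51 CPM in any population. Itgax, the gene of CD11c, stood at a mean of 21 CPM in Ly6Chigh monocytes, 248 CPM in Ly6Clow monocytes and 179 to 497 CPM in the brain. Cd209a averaged 1027 CPM in Ly6Clow monocytes and 99.1 CPM or less elsewhere. T and NK cell markers, which report cells that hold little class II in the mouse, summed to 22.8 to 154 CPM in Ly6Chigh monocytes, 784 to 1182 CPM in Ly6Clow monocytes and 349 to 1787 CPM in the brain. Of 8 such markers 7, 7 and 8 were called higher in the 3 brain comparisons, and 7 were lower in Ly6Chigh than in Ly6Clow monocytes. Microglia markers summed to 0.943 to 57.4 CPM in the blood and 1066 to 6581 CPM in the brain, with 6 of 6 called higher in each brain comparison. The brain gate was meant to leave out microglia, and the antibodies named for sorting include none made for T, NK or B cells. The part of these cells in the members' levels was not tested.

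The 10 monocyte and macrophage markers were above 0 in every population, which does not alone show what the cells were. Against Ly6Chigh monocytes 4 of them were called higher and 1 lower in glioma monocytes, and 3 higher and 3 lower in each macrophage population. Mean Ccr2, of which the mice have 1 intact allele and by which the macrophages were sorted, went down from 2060 CPM in Ly6Chigh monocytes to 781 CPM in GFPneg glioma monocytes, 243 CPM in GFPneg CCR2high and 72.2 CPM in GFPneg CCR2low macrophages.

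Other genes of the pathway were counted in lists. Of 9 genes for endosomal proteolysis, which cuts the invariant chain and the antigen, 6 were called higher than in Ly6Chigh blood monocytes in GFPneg glioma monocytes, 7 in CCR2high and 6 in CCR2low macrophages, and none lower. The median log2 fold changes of the list were 1.16, 1.17 and 1.12, beside the 0.12, 0.15 and 0.17 of all tested genes. In glioma monocytes the largest were Ctsl (3.12 ± 0.50), Lgmn (2.95 ± 0.35) and Ctsd (2.88 ± 0.24), all proteases of the endosome and lysosome. Ctss, which trims the invariant chain in antigen-presenting cells, was higher by 1.16 ± 0.31 (adjusted p = 0.011). Between the blood monocytes 1 of 9 was called, Ctsc, at 1.41 ± 0.31 higher in Ly6Chigh monocytes.

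Of the 10 transcription factor genes of class II promoters reported here, edgeR called none in either direction in glioma monocytes, where 2.68% of tested genes were called lower. In CCR2high macrophages none was higher and 2 were lower, Creb1 (−1.25 ± 0.43) and Irf2 (−0.94 ± 0.27), where 5.14% of tested genes were called lower. The same 2 genes were called lower in CCR2low macrophages, where the share was 6.09%. Rfx5, Rfxap, Rfxank, Nfya, Nfyb and Nfyc, the fixed binding proteins of the X and Y boxes shown above, passed the test in none of the 3. Between the blood monocytes Irf8 was called higher in Ly6Chigh cells (1.69 ± 0.42).

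Of 9 genes for turnover and surface partners 6, 5 and 5 were called higher in the 3 brain comparisons and none lower, where 11.1%, 12.7% and 14.1% of tested genes were called higher. The list's medians were 2.53, 1.99 and 1.82, beside 0.12, 0.15 and 0.17 over all tested genes. Cd63 (7.35 ± 0.53), Cd81 (5.06 ± 0.51) and Cd9 (3.53 ± 0.42), tetraspanins of endosomes and the surface, led in glioma monocytes, and the costimulatory genes Cd86 (2.57 ± 0.34), Cd40 (2.53 ± 0.64) and Cd80 (2.35 ± 0.78) were also called there. March1, the ligase that removes class II from the surface, was not called (−0.28, −0.62 and −0.88). Cd9 (−3.98 ± 0.43), Cd81 (−3.34 ± 0.48) and Cd82 (−2.05 ± 0.46) were lower in Ly6Chigh than in Ly6Clow monocytes.

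Of 8 genes of interferon gamma and interleukin 10 signalling 2 were called higher and 1 lower in glioma monocytes, beside 11.1% and 2.68% of all tested genes. Socs3 (3.37 ± 0.61), a feedback inhibitor, and Jak2 (2.28 ± 0.55), a kinase of the interferon gamma receptor, were higher, and Ifngr1 (−1.42 ± 0.22), the ligand-binding chain of that receptor, was lower. CCR2high macrophages gave the same counts, and in CCR2low macrophages Socs3 (2.42 ± 0.57) was higher and Ifngr1 (−1.61 ± 0.20) and Il10ra (−0.93 ± 0.33) were lower. None of the 8 was called between the blood monocytes by edgeR.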

How the data were processed

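The deposited values are whole-number read counts per gene. To make them, the authors reverse transcribed 500 pg of RNA, aligned the read pairs with STAR (mm10), used Picard 1.8.4 to drop duplicates, and ran htseq-count as intersection-strict (the strand setting is not given in the sources used here). Of the reads, 6.28% to 17.4% fell on no gene and 1.58% to 1.9% on several, and these stayed out of library sizes. Groups came from the sample labels, and 0 columns were left unused. The members and lists were chosen with earlier results of these data known. Every member is named, and of each list the called genes with the largest changes, up to 3 in each direction, together with Ctss, the Rfx and Nfy genes, March1, Cd86, Cd40 and Cd80, which were picked for their role after their values were seen. A gene of the transcription factor list is not reported here.

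Tests used edgeR 4.0.16 (R 4.3.3) with TMM, filterByExpr and robust quasi-likelihood in 1 fit over 8 populations, with Benjamini-Hochberg adjustment over 11566 genes and a threshold of 0.05. Log2 CPM used a prior count of 2. The steps were tested on simulated data. The number in a sample's title was taken to mark the mouse. Deviations from population means correlated by a median of 0.112 between samples of a mouse (40 pairs, −0.0971 to 0.674) and −0.0314 between mice (116 pairs). Among brain populations the same-mouse median was 0.323 (21 pairs), and between blood and brain it was −0.0128 (16 pairs), no higher than the 0.00202 between mice. Mouse as a block gave each mouse 1 shift common to blood and brain, which these values do not show. Alternatives were DESeq2 1.42.0 and its size factors, spike-in scaling, other filters, only the populations compared, mouse as a block, other uses of the repeat libraries, and leaving out replicates. Leaving out all repeat libraries and leaving out mouse 24 were added after the data were seen.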

Additional observations from a re-analysis of the deposited data

Results flagged for a closer look

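Cd74 in GFPpos CCR2low macrophages stood at 25318 CPM in mouse 22, far from the other 3 mice, at 13677 to 15552 CPM. The gap to the next sample was 0.839 of the whole range. Of 40 groups of 4 samples looked at among the members this was the only 1 so far apart, and chance gives about 1 in 20. Mouse 22 was above the population mean in Cd74 in 6 of 6 brain samples.

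H2-Ob was higher in GFPpos than in GFPneg CCR2high macrophages in 4 of 4 mice (median 0.43 on the log2 scale) and lower in GFPpos CCR2low macrophages in 4 of 4 mice (median −0.53). The interaction term that tests this difference gave 1.07 ± 0.89 (SE, adjusted p = 0.999993), which did not pass.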

How the results depend on the processing

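Counts of called members changed by over 1.5 times as follows. Against Ly6Chigh monocytes, spike-in scaling left 1 (glioma monocytes), 3 (CCR2high) and 3 (CCR2low), and omitting mouse 24 left 4 and 5 (glioma monocytes, CCR2low). Between the blood monocytes, spike-in scaling and fitting these populations alone gave 0 (the latter called no gene at all), the filter of 10 counts in every library 5, mouse as a block 7 and DESeq2 7, and single omissions gave up to 5, without Ly6Clow mouse 24. H2-Aa reversed to 0.22 with spike-in scaling. Against Ly6Clow monocytes, glioma monocytes gained 3 with spike-in scaling, 2 with the block and 1 without Ly6Clow mouse 24. CCR2high macrophages had 8 with spike-in scaling, 5 without repeat libraries, 1 with first libraries alone, 1 when fitted alone with Ly6Clow, and 1 to 6 over single omissions. CCR2low macrophages had 8 with spike-in scaling, 3 with the block, 3 with DESeq2, 2 with its size factors, 2 with the filter of 10 counts, 0 with the filter of 1 count, 0 with first libraries alone, 0 without mouse 24, 0 when fitted alone, and 0 to 3 over single omissions. The median correlation between members was 0.855 with spike-in scaling and 0.50 without mouse 26. The causes were not tested.

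The spike-in scale shifted the median gene by 1.70 to 1.87 on the log2 scale against Ly6Clow monocytes. Mouse as a block changed the other counts by at most 1.5 times (CCR2high macrophages against Ly6Clow monocytes, from 2 to 3). In Ly6Chigh monocytes the values of H2-Oa rest on 6 to 18 counts and those of H2-Ob on 3 to 36.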
